A study of Mus musculus with 5 samples.

Results

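Ribosomal protein genes were examined in RNA from MC38 tumours of mice kept warm or cold. They were taken by name, as every entry whose symbol has the form of a large subunit (Rpl), small subunit (Rps), stalk (Rplp) or laminin receptor (Rpsa) protein, and entries marked as pseudogenes by the ending -ps were left out. This gave 83 of the 54113 named entries, 51 of the large and 32 of the small subunit. C57BL/6 mice were inoculated with MC38, a mouse colon adenocarcinoma line, and the tumour-bearing animals were housed at 30 °C (n = 3 libraries) or at 4 °C (n = 2 libraries) for 2 weeks. The labels name no other allele or agent and give neither age nor sex. They number the libraries within each group without saying that each came from a separate animal, so a p-value measures only the spread between these libraries. The libraries held 16191708 to 20320525 counts on named genes, and a count of 3 equals 0.148 to 0.185 CPM (counts scaled to a library total of 1000000).

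Each ribosome is built from a small subunit, which reads the mRNA, and a large subunit, which joins the amino acids. Their proteins are made in matched amounts from single-copy genes spread over the genome, and their mRNAs are among the most abundant in growing cells. These mRNAs start with a run of pyrimidines (the terminal oligopyrimidine or TOP motif), through which mTORC1 signalling controls their translation, so the mRNA level need not follow the rate at which ribosomes are made.

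Before the results, the content of the libraries has to be stated. In 30 °C replicate 2, 24 genes of the exocrine pancreas held 27.4% of all counts, while they held at most 0.27% in any other library. The 11 markers of epithelial carcinoma summed to between 20.6 and 127 CPM, and 1 to 3 of them had no count in a given library, whereas the 14 B cell markers summed to between 1833 and 5326 CPM. The libraries labelled as colorectal tumour thus had low levels of epithelial markers and high levels of lymphocyte markers. In bulk RNA, fewer cells of a type and less RNA per cell cannot be told apart. Because the acinar counts lower every other gene's CPM in 30 °C replicate 2, levels of single genes are given as TMM-scaled CPM. The trimmed mean of M-values (TMM) sets the scale so that the bulk of genes is level between libraries.

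Ribosomal protein transcripts took a larger share of the counts in both libraries at 4 °C than in any library at 30 °C. Summed over the 83 genes, they stood at 77220, 54662 and 82584 CPM in 30 °C replicates 1 to 3 and at 91807 and 111187 CPM in 4 °C replicates 1 and 2. The group means were 71489 ± 14817 (SD, n = 3) and 101497 ± 13704 (SD, n = 2), a 1.42-fold difference. As a share, this was 5.47% of all counts in the lowest library (95% Wilson interval 5.46% to 5.48%), 8.26% in the highest 30 °C library (8.25% to 8.27%) and 9.18% in the lower 4 °C library (9.17% to 9.19%). PCR copies were not marked as such, so these intervals account for counting error alone.

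Much of the spread at 30 °C lay with the acinar-rich library. On the TMM scale the sums at 30 °C were 71853, 74234 and 73272 CPM, and those at 4 °C were 84983 and 107853 CPM. The 30 °C libraries were then nearly equal (73120 ± 1198, SD, n = 3), and both 4 °C libraries lay above them (96418 ± 16171, SD, n = 2), a 1.32-fold difference. With the acinar genes left out of the total, the fold was 1.30, from 75262 to 82587 CPM at 30 °C against 91809 and 111488 CPM. Without 30 °C replicate 2 the log2 ratio of the group means in CPM was 0.35, against 0.51 with it. The groups did not overlap on any of these scales. On the TMM scale, the distance between the 4 °C libraries was larger than the distance from 4 °C replicate 1 to any 30 °C library.

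**Figure D1:**
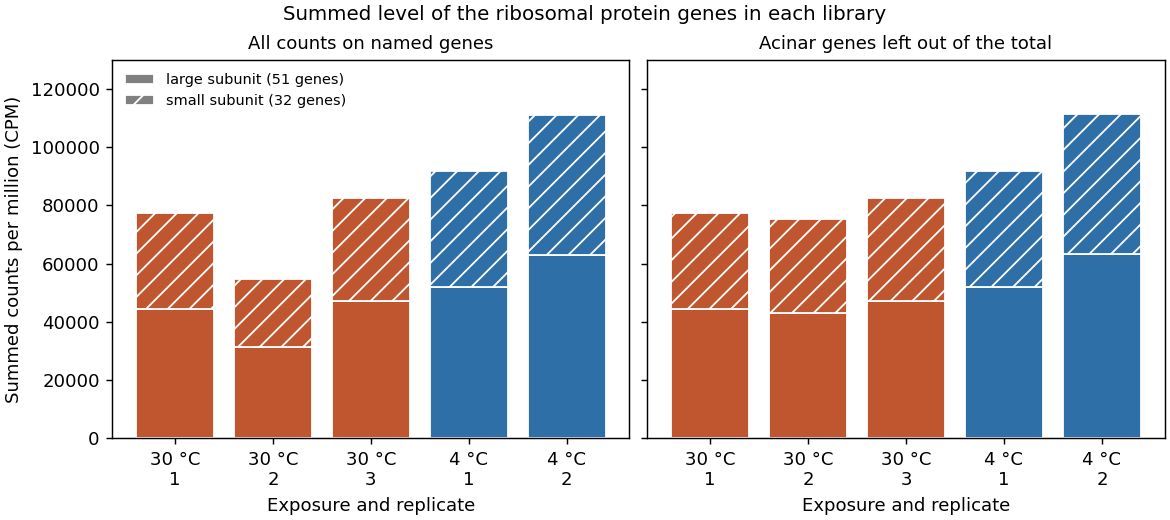
Summed level of the 83 ribosomal protein genes in each of the 5 libraries (vertical axis, CPM), on all named genes (left) and without the acinar genes in the total (right). Plain bars are the large and hatched bars the small subunit, and on both scales the 4 °C libraries (blue) exceed all 30 °C libraries (orange), with 4 °C replicate 2 highest.

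Both subunits took part to a like degree. The 51 large subunit genes went from 41784 ± 699 TMM-scaled CPM (SD, n = 3) at 30 °C to 54600 ± 9153 (SD, n = 2) at 4 °C, and the 32 small subunit genes from 31336 ± 532 (SD, n = 3) to 41818 ± 7019 (SD, n = 2). The count of large over small subunit transcripts was 1.34, 1.34 and 1.32 in the 30 °C libraries and 1.31 in both 4 °C libraries. This ratio was therefore slightly lower in both 4 °C libraries than in any 30 °C library.

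The genes were then taken singly, in a fit of all 16133 genes that passed the filter on low counts, by edgeR's quasi-likelihood test, adjusted over all of them (Benjamini-Hochberg). No ribosomal protein gene was called at an adjusted p of 0.05, and 0% of all genes tested were called. The smallest adjusted p of any gene was 0.69, and the ribosomal protein genes lay between 0.69 and 0.92. Of the 83 genes, 80 passed the filter. The other 3 were Rpl10l, which had no count in any library, Rpl39l with 2 to 12 counts, and Rpl3l with 3 to 14 counts. At an unadjusted p under 0.05, 26 of the 80 were higher at 4 °C and 0 were lower, where 2.58% of all genes tested were higher and 4.17% lower. The Wald test of DESeq2, run as an alternative, tested 82 of the genes and also called 0, against 0.741% of all genes it adjusted. Its smallest adjusted p for them was 0.089, and 37 had an unadjusted p under 0.05, all higher, against 1.5% of all genes in that test.

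Direction was shared by nearly all of the genes, and the size of the difference was small and even. The fitted level was higher at 4 °C for 79 of 80, against 50.7% of all genes tested. The median log2 fold change was 0.41, with quartiles of 0.36 and 0.47, while the median over all genes was 0.006. For 69 of the 80 it fell between 0.3 and 0.6 on the log2 scale. The groups did not overlap, with both 4 °C libraries higher, for 70 of 80 (12.2% of all genes tested), and in no case were both lower (11% of all genes). Other abundant genes did not have this direction in common. The 1913 genes outside the group with a mean of at least 100 CPM had a median log2 fold change of −0.02, and 47% of them were higher at 4 °C. Ribosomal protein genes share libraries and scale, so the 80 are not 80 separate observations.

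The size of the difference depended on 4 °C replicate 2. For 79 of the 80 genes the highest TMM-scaled level was found in this library. Without this library the median log2 fold change was 0.21, and without 4 °C replicate 1 it was 0.58, each leaving a single library at 4 °C. Leaving out a 30 °C library kept the median at 0.41 in each case. The count at an unadjusted p under 0.05 fell from 26 to 3 without replicate 1, 4 without replicate 2 and 3 without replicate 3. The share of all genes under that p was not computed for these fits, so the counts have no background beside them. Between 76 and 80 of the 80 to 82 genes tested were higher at 4 °C in every fit that left out a library.

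**Figure D2:**
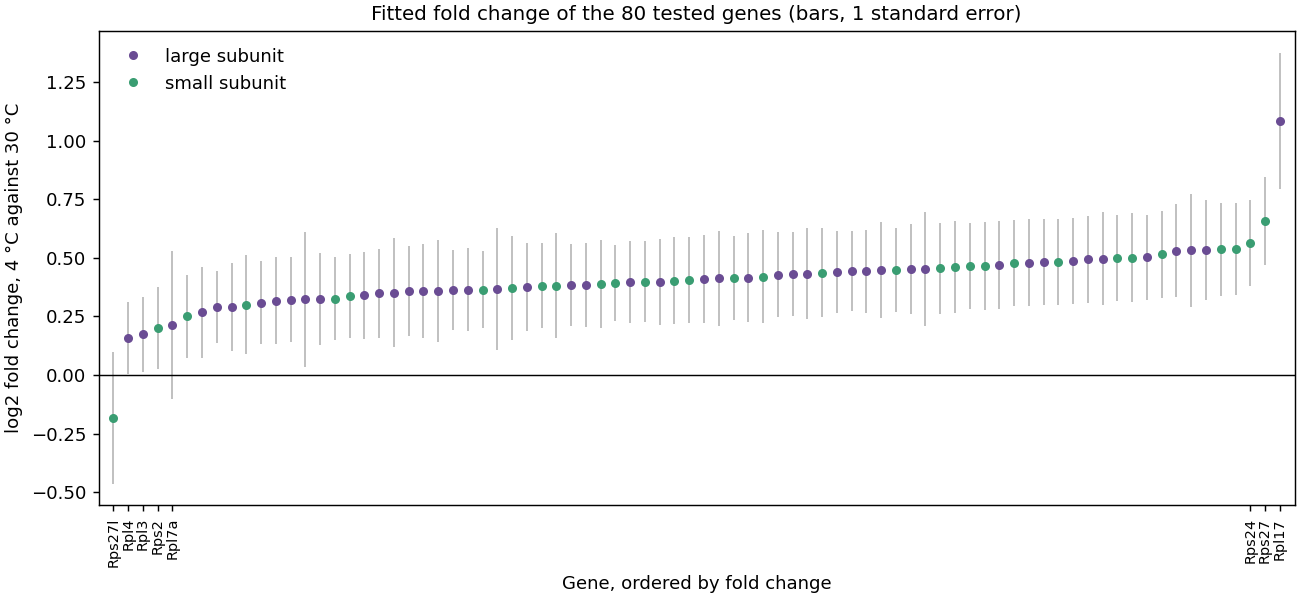
Fitted log2 fold change of the 80 tested ribosomal protein genes, 4 °C against 30 °C, ordered by size, with bars of 1 standard error and names for some genes at the ends. Large (purple) and small (green) subunit genes are mixed along the order, 79 lie above 0, and Rpl17 at 1.08 and Rps27l at −0.18 stand at the ends.

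Stretches of promoter are shown for genes at both ends of this order, 3 with large and 3 with small or negative differences. They run from 60 bases before to 30 after the RefSeq start of transcription, 5′ to 3′ on the gene's strand (GRCm38.p6). Capitals mark the ETS core ccggaag or the pyrimidine stretch ctttcc, on either strand, where present.
Rps27 (chr3:90213619-90213708, minus strand): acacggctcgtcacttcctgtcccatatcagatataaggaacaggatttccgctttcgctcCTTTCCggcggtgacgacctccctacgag
Rps24 (chr14:24490618-24490707, plus strand): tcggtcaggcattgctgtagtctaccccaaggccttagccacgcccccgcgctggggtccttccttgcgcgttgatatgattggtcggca
Rpl35a (chr16:33056393-33056482, plus strand): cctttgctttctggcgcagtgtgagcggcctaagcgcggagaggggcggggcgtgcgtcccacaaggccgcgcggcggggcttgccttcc
Rps27l (chr9:66946026-66946115, plus strand): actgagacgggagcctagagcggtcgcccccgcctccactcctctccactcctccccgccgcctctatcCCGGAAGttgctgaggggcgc
Rpl4 (chr9:64173327-64173416, plus strand): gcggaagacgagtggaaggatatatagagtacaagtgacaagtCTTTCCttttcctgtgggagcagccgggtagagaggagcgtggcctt
Rps2 (chr17:24720003-24720092, plus strand): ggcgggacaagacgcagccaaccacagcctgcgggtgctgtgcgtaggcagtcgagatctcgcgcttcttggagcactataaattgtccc

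RefSeq windows of 300 bases (250 before and 50 after the start) were at hand for 61 of the 83 genes. The ETS core ccggaag, searched on both strands, was present in 24 of them (39.3%), against 9.12% of 27025 windows of all genes. The stretch ctttcc was present in 29 (47.5%, against 26.3%), and the E-box cacgtg, the site read by Myc, in 5 (8.2%, against 7.24%). Genes with the ETS core had a median log2 fold change of 0.38 and genes without it 0.40. For ctttcc the medians were 0.39 and 0.40. Windows with and without a match thus had like differences, and a match is a string of letters, not a site shown to be used.

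The gene with the largest difference and the smallest p was Rpl17, whose product lines the peptide exit tunnel of the large subunit (chromosome 18, 74998558 to 75003381, plus strand). Its TMM-scaled CPM were 337, 412 and 212 at 30 °C and 654 and 703 at 4 °C. Both 4 °C libraries were well above all 30 °C libraries, which themselves were widely spread. On the log2 scale the difference was 1.08 (standard error 0.29, unadjusted p = 0.0088, adjusted p = 0.69 by edgeR). With the counts of -ps entries added to their parents it was 0.60, below the 0.66 of Rps27 in that fit, so the place of Rpl17 at the top depends on how reads of its copies are counted. Next came Rps27, a small subunit protein with a zinc finger (chromosome 3, 90212522 to 90213651, minus strand), at 511, 490 and 618 CPM against 846 and 854 CPM. Here the 4 °C libraries were almost equal to each other, and the log2 difference was 0.66 (standard error 0.19, unadjusted p = 0.012, adjusted p = 0.69 by edgeR).

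Among the other genes with the smallest p, Rps24 and Rpl35a had the shape of the whole group. Rps24, needed to process the small subunit's rRNA, stood at 1185, 1315 and 1236 CPM against 1610 and 2068 CPM, a log2 fold change of 0.56. Rpl35a was at 385, 382 and 393 CPM against 485 and 611 CPM (0.50). In both genes the 30 °C libraries were close together, 4 °C replicate 1 lay above them and 4 °C replicate 2 higher still. Over the tested genes the median coefficient of variation at 30 °C was 4.24%, and the median standard error of the log2 fold change was 0.19, against 0.28 over all genes.

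At the other end, Rps27l was the only tested gene with a lower fitted level at 4 °C. It encodes a paralog of Rps27 that p53 can induce (chromosome 9, 66946086 to 66949516, plus strand). Its TMM-scaled CPM were 104, 114 and 70.0 at 30 °C and 68.0 and 101 at 4 °C, so the groups overlapped. The fitted log2 difference was −0.18 (standard error 0.28, adjusted p = 0.92 by edgeR), and 0.078 without 4 °C replicate 1. The smallest positive differences belonged to abundant genes. Rpl4 was at 2046, 2338 and 2296 CPM against 2481 and 2487 CPM (log2 fold change 0.16), and Rpl3, at the peptidyl transferase centre, at 1539, 1618 and 1744 CPM against 1828 and 1858 CPM (0.17). For both, 4 °C replicate 2 was level with 4 °C replicate 1, unlike most of the group. Rps2, at the entry of the mRNA channel, was at 2034, 2025 and 1861 CPM against 1993 and 2539 CPM (0.20), with 4 °C replicate 1 inside the 30 °C range. Besides Rps27l and Rps2, the groups overlapped for Rpl7a, Rpl10, Rpl21, Rpl24, Rpl28, Rpl29, Rpl41 and Rps12.

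Genes with roles beyond the subunit had log2 fold changes from 0.29 to 0.54, on both sides of the group's median of 0.41. Among the stalk proteins, which recruit elongation factors, Rplp0 was at 2847, 2948 and 2845 CPM against 3173 and 3866 CPM (log2 fold change 0.29), and Rplp1 and Rplp2 had 0.43 and 0.45. Rpsa, also known as the laminin receptor, had 0.36, and Rps6, the substrate of S6 kinase, had 0.33. The 2 proteins that bind Mdm2 when ribosome assembly is disturbed, Rpl5 and Rpl11, had 0.36 and 0.38. Rps19, the gene most often mutated in Diamond-Blackfan anaemia, stood somewhat higher, at 770, 742 and 803 CPM against 956 and 1282 CPM (0.54), and Rps27a, made as a fusion with ubiquitin, had 0.34. In each of these 9 genes both 4 °C libraries were above all 30 °C libraries, and none passed the adjusted threshold.

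The paralogs Rps4l, Rpl39l, Rpl3l and Rps27l stood below their near copies in level per kilobase of transcript (CPM divided by the length of the shortest principal transcript in kilobases, mean over the 5 libraries). Rps4l, annotated as a transcribed pseudogene, was at 12.8 and Rps4x, on the X chromosome, at 1663, with log2 fold changes of 0.38 and 0.40. Rpl39l was at 0.53 and Rpl39 at 680, Rpl3l at 0.25 and Rpl3 at 1288, and Rps27l at 181 and Rps27 at 1972. The near copies Rpl39 and Rpl10 had log2 fold changes of 0.44 and 0.27. Levels per length were not computed for Rpl22l1 and Rpl36al. Rpl22 and its paralog Rpl22l1 had log2 fold changes of 0.38 and 0.32, and Rpl36a and its retrocopy Rpl36al 0.40 and 0.15. Reads of such copies can be split or lost in counting, so the values of paralogs are uncertain.

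On the same scale per kilobase, Rplp1 was highest at 4028, followed by Rpl41 at 3290, Rps15 at 2805, Rps9 at 2512 and Rpl13 at 2511, each a mean over the 5 libraries. The lowest among genes over 3 counts in every library were Rpl32l at 11.8, Rps4l at 12.8, Rpl6l at 126, Rps27l at 181 and Rpl21 at 234. Of these, Rpl32l, Rpl6l and Rps4l are annotated as pseudogenes although their names carry no -ps. In all, 76 of the 83 genes exceeded 100 CPM in every library.

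When the libraries were scaled by the summed counts of the ribosomal protein genes themselves, a setting chosen after seeing the data, most transcripts kept a similar share at both temperatures. No ribosomal protein gene was called (0% of all genes), and 0 had an unadjusted p under 0.05. Of the 80 genes, 46 were then higher at 4 °C (14.9% of all genes), and 73 lay within 0.2 of 0 on the log2 scale. This scaling holds the summed ribosomal protein counts level between libraries. A near-even split therefore follows from it, and the lower share over all genes restates the main fit. All genes shift by a like amount, so the order of the genes is mostly that of the main fit as well. The share did not overlap between the groups for 25 of the 80 genes, higher at 4 °C for 16 (1.9% of all genes on this scale) and lower for 9 (36.7% of all genes). Rpl17 was thus again at the top, with a log2 difference of 0.70 (standard error 0.31, adjusted p = 0.37 by edgeR). Its share of the ribosomal protein counts was 0.469%, 0.555% and 0.289% at 30 °C and 0.769% and 0.652% at 4 °C. Rps27l was lowest with −0.59 (standard error 0.27, adjusted p = 0.38 by edgeR), at 0.145%, 0.153% and 0.0955% against 0.0800% and 0.0938%. Rpl4 had a share of 2.85%, 3.15% and 3.13% at 30 °C and 2.92% and 2.31% at 4 °C, so that only 4 °C replicate 2 was low.

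**Figure D3:**
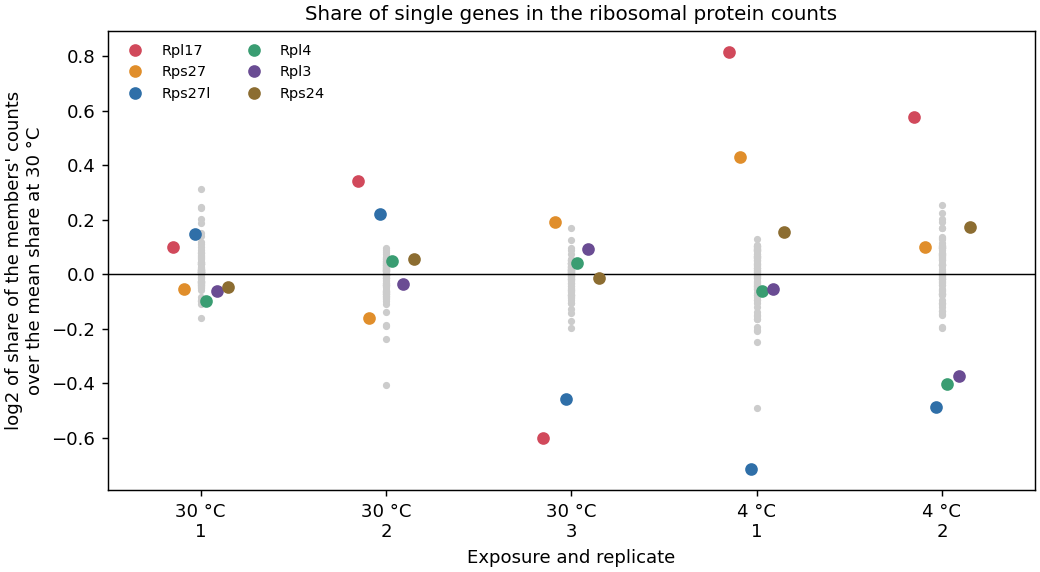
Share of each tested gene in the ribosomal protein counts of a library, as log2 of the share over its mean at 30 °C (grey points, 5 libraries on the horizontal axis), with 6 genes coloured. Most points lie within 0.2 of 0, while Rpl17 is high and Rps27l low in both 4 °C libraries. In 30 °C replicate 3 the Rpl17 share is the lowest, and the Rps27l share is near that of 4 °C replicate 2.

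Subunit proteins and partners whose symbols fall outside the naming rule had the same direction. All 8 that were tested were higher at 4 °C and 0 were called. Rps27rt, a retrocopy of Rps27, was at 64.5, 80.7 and 75.5 TMM-scaled CPM against 117 and 123 CPM (log2 fold change 0.70, unadjusted p = 0.0057, adjusted p = 0.69 by edgeR). A retrocopy can be near-identical to its parent, so the split of reads between Rps27 and Rps27rt is uncertain. Fau, which encodes a fusion of a ubiquitin-like protein with the small subunit protein Rps30, was at 857, 861 and 934 CPM against 1139 and 1552 CPM (0.61). Rack1, the scaffold on the small subunit, had 0.36 and Rps3a1 0.31.

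The other parts of the translation machinery differed less. Of 24 other genes whose mRNAs carry a TOP motif, 20 were higher at 4 °C, with a median log2 fold change of 0.20 and 0 called. Fau and Rack1 are also in that list. Tpt1 had 0.43 and Hnrnpa1 −0.27. Of 12 elongation and termination factors, 7 were higher (median 0.09), among them Eef1b2 with 0.37, while Eef2k, the kinase that inhibits Eef2, had −0.54 (adjusted p = 0.69 by edgeR). Of 39 initiation factors 14 were higher (median −0.03), with Eif3f at 0.37 and Eif4ebp1, a repressor of cap-dependent initiation, at −0.60. Of these lists, the initiation factors overlapped between the groups in summed TMM-scaled CPM (10006 to 10480 at 30 °C, 10034 and 10319 at 4 °C).

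Factors that build ribosomes had medians closer to that of all genes. Of 64 biogenesis factors 42 were higher (median 0.05). Imp3 had 0.46 and Ncl, nucleolin, −0.20. Their summed level was 5137 to 5408 CPM at 30 °C and 5149 and 5519 CPM at 4 °C, so the groups overlapped. Of 15 RNA polymerase I genes 13 were higher (median 0.09), with Znrd1, also named Polr1h, at 0.60. Their sums of 681 to 745 CPM at 30 °C and 771 and 781 CPM at 4 °C did not overlap, but they did in unscaled CPM (501 to 840 against 805 and 833). A mixed list held 17 chaperones, quality control factors and regulators, among them Mdm2 and the S6 kinases, and 3 were higher (median −0.21). In that list Larp1, the protein that binds TOP mRNAs, was at 160, 231 and 173 CPM against 151 and 116 CPM (log2 fold change −0.50, adjusted p = 0.76 by edgeR). Of 78 mitochondrial ribosomal proteins 68 were higher, with a median of 0.12. In each list 0 genes were called.

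**Figure D4:**
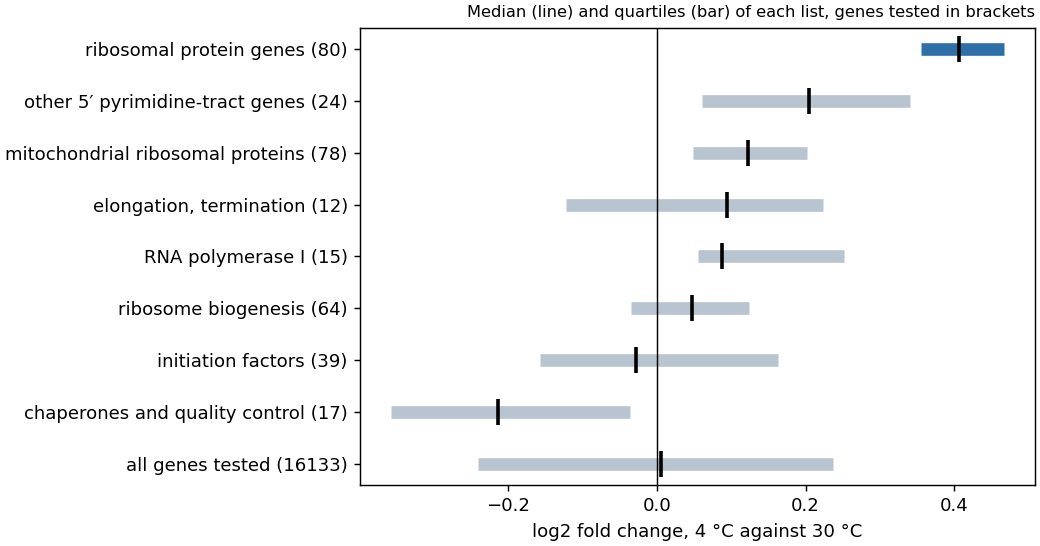
Median (black line) and quartiles (bar) of the fitted log2 fold change, 4 °C against 30 °C, for ribosomal protein genes, 7 other lists and all 16133 genes tested, with the number of genes in brackets. The ribosomal protein genes have the highest median, 0.41, with quartiles of 0.36 and 0.47 that lie above the upper quartile of each other list.

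Markers of some cell types were higher at 4 °C, as the ribosomal protein genes were, while those of others were lower or mixed. What part cell content had in the result was not tested. All 10 T cell markers were higher at 4 °C (median log2 fold change 0.78), and they summed to between 298 and 530 TMM-scaled CPM at 30 °C and to 674 and 697 CPM at 4 °C. All 14 B cell markers were higher as well (median 0.69), but their sums of 1750 to 4368 CPM at 30 °C and 4255 and 4930 CPM at 4 °C overlapped. The 4 genes of splenic mesenchyme summed to between 102 and 124 CPM against 193 and 198 CPM. None of the B cell, T cell and mesenchyme markers was at 0 in any library. By contrast, the 10 proliferation genes were all lower at 4 °C (median −0.55), at 2394 to 3103 CPM against 1591 and 1749 CPM, as were the 12 neutrophil markers (median −1.36), whose sums overlapped. Erythroblast markers were higher for 1 of 9 (median −0.74) and macrophage markers for 6 of 10 (median 0.07).

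The library order differed between these lists and the ribosomal proteins. In 30 °C replicate 3, B cell markers summed to 4368 TMM-scaled CPM, between the values of the 4 °C libraries (4930 and 4255 CPM). T cell markers summed to 530 CPM in that library, below both 4 °C libraries (697 and 674 CPM). Its ribosomal protein sum, at 73272 CPM, was like that of the other 30 °C libraries. 4 °C replicate 2, with the highest ribosomal protein sum, was not the highest for B or T cell markers. Ribosomal protein counts per B or T cell marker count were 35.1, 25.9 and 15 at 30 °C and 15.1 and 21.9 at 4 °C, which overlapped.

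**Figure D5:**
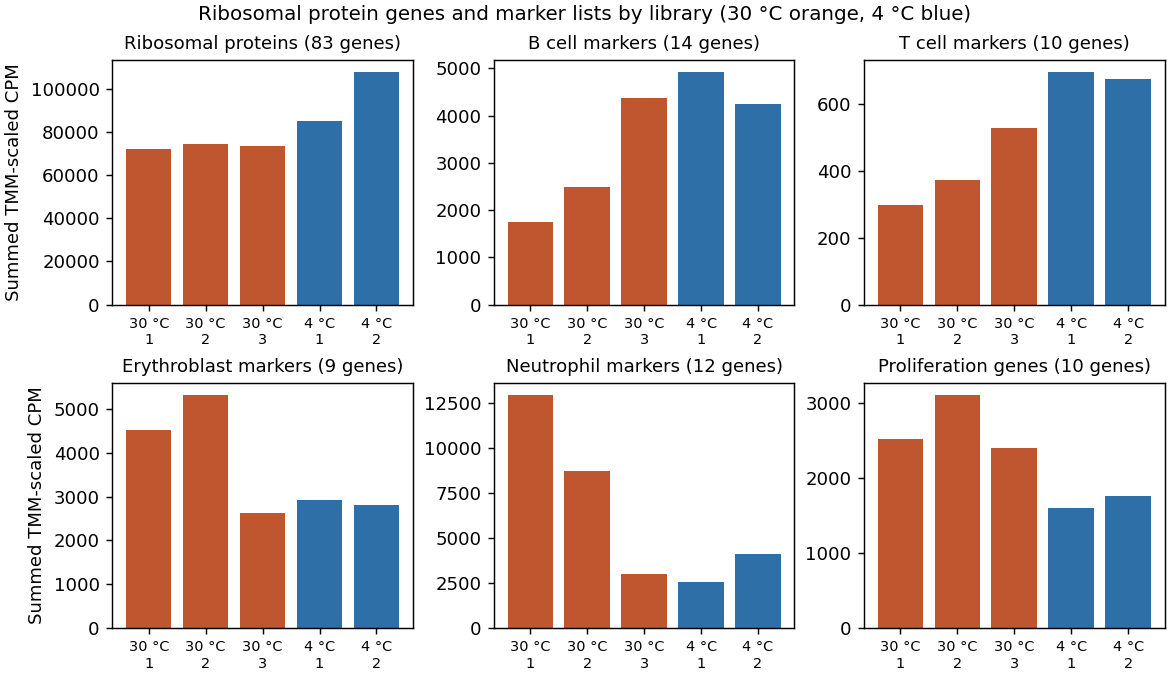
Summed TMM-scaled CPM of the ribosomal protein genes and of 5 marker lists in each library (30 °C orange, 4 °C blue), each panel with its own vertical axis from 0. The ribosomal protein and T cell panels have both 4 °C bars highest, the proliferation panel has both lowest, and in the B cell panel 30 °C replicate 3 reaches the level of the 4 °C libraries.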

How the data were processed

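RNA-seq of 5 libraries labelled as tumour tissue (3 at 30 °C, 2 at 4 °C) was used. The deposited values are raw counts per gene, whole numbers that the authors, by the paper's methods, obtained with featureCounts on Gencode vM19 (mouse GRCm38). The submitters' processing notes name fastp, HISAT and RSEM without their roles. The strand setting and the handling of multi-mapping reads are not given in the sources used here. Unnamed entries (333, at most 0.017% of counts) were left out, and of 97 repeated symbols the entry with the highest mean kept the symbol. Coordinates are from GENCODE M21.

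Groups came from the labels, and no batch or date is given. Counts were analysed in R 4.3.3 with edgeR 4.0.16 (filterByExpr, TMM, robust quasi-likelihood F-test, no covariate, Benjamini-Hochberg adjusted p called at 0.05) and, as an alternative, DESeq2 1.42.0. Sums and figures were made in Python 3.11.15. The method was tested on simulated data. Alternatives were other scalings and filters, a replicate block, no robust estimation, acinar genes removed, counts of -ps entries added to their parent, and each library left out. The members and lists were chosen with earlier results of these data known, so no list was tested as a set. Genes named were the 5 with the smallest p in each direction (only 1 was lower), paralogs, genes with textbook roles, the 5 highest and 5 lowest per length, and for other lists up to 2 in each direction by p. Genes whose groups overlapped, and the 3 that missed the filter, are named to account for all. A few that the rule picks are not reported here.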

Additional observations from a re-analysis of the deposited data

How the results depend on the processing

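The number of ribosomal protein genes called was 0 under all 14 alternatives fitted, and 76 to 80 of them were higher at 4 °C. The summed level kept its direction, with a log2 ratio between 0.35 and 0.64. Over all genes, the count called was 112 with DESeq2 in place of 0. With upper-quartile scaling the median log2 fold change of the ribosomal protein genes was 0.46, and over the fits that each left out 1 library it ran from 0.21 to 0.58. The count of 26 genes at an unadjusted p under 0.05 was 3 without a filter, 3 without robust estimation and from 1 to 55 with 1 library left out. Of 434 values of named genes under the alternatives, 431 kept their direction. The others turned when a 4 °C library was left out. Without replicate 1 and without replicate 2, the log2 fold change was 0.078 and −0.514 for Rps27l, 0.31 and −0.034 for Rpl36al, and 0.628 and −0.006 for Rpl41, and these bound the range over all 5 such fits. What caused these shifts was not tested. With 2 libraries at 4 °C, leaving one out leaves 1, which is assumed to vary like the others.

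The replicate numbers gave no ground for pairing: same-numbered libraries had correlations of −0.26 (number 1) and 0.26 (number 2) in their deviations from the group means. With the replicate number as a block, 44 genes were called over all genes, 0 of them ribosomal protein genes. In that fit 2 ribosomal protein genes had an unadjusted p under 0.05, and the share of all genes was not computed.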

Other observations

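Entries named as pseudogenes of ribosomal protein genes, with the ending -ps, had the direction of their parents. Of 299 such entries 99 passed the filter, 92 of these were higher at 4 °C, and their median log2 fold change was 0.52, with 0 called. Their counts were 3.21% to 3.58% of those of the 83 genes, with the groups overlapping, and adding them to their parents left the summed log2 ratio at 0.51. For Rpl17, the addition lowered the log2 fold change from 1.08 to 0.60. Whether these reads come from the pseudogenes or from the parent mRNAs cannot be told from the counts.

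The 83 genes lie on 19 chromosomes, 14 of them on chromosome 7 and 4 on the X chromosome. The tested genes on chromosome 7 had a median log2 fold change of 0.44 and those on the X chromosome one of 0.40. Small nucleolar RNA genes lie inside 29 of the 83, 56 in all. The tested hosts had a median log2 fold change of 0.42 and the genes without one a median of 0.40.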
